A study of Bos taurus with 14 samples.

Results

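The mitochondrial genome encodes 3 subunits of cytochrome c oxidase, and their genes COX1, COX2 and COX3 were described in the RNA of milk fat globules from cows of 2 β-casein genotypes. The 3 genes were chosen among 36075 Ensembl cattle identifiers by their place in a block of mitochondrial identifiers and by their length. COX1 is ENSBTAG00000043561 (1545 bases), COX2 is ENSBTAG00000043556 (684 bases) and COX3 is ENSBTAG00000043560 (781 bases). In that block each of these lengths belongs to 1 identifier only, and each is the length that the RefSeq table of the assembly ARS-UCD2.0 gives for the gene of that name. For COX1 this match holds by construction, since its length set the scale of the others. All 3 genes had counts in all 14 libraries and passed the filter on low counts.

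Cytochrome c oxidase, complex IV of the respiratory chain, takes electrons from cytochrome c and passes them to oxygen while it moves protons across the inner mitochondrial membrane. COX1 carries the haem and copper centre where oxygen is reduced, COX2 carries the copper centre that receives electrons from cytochrome c, and COX3 completes the core without a metal centre of its own. All 3 are transcribed inside the mitochondrion as stretches of a long precursor, which is cut largely at the tRNAs that lie between the genes, and the resulting mRNAs carry short poly(A) tails. A milk fat globule is a droplet of fat that the secretory cell of the udder releases wrapped in membrane. It can enclose a crescent of that cell's cytoplasm, and RNA in the fat layer of milk is used as a window on the lactating gland without a biopsy.

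The 14 purebred Holstein cows came from 1 commercial farm and shared rations and management. The A1A1 group was homozygous for the A1 form of β-casein and the A2A2 group for the A2 form, with 7 cows and 7 libraries each. The design contrasts the globule transcriptomes of these genotypes. The labels give neither age nor stage of lactation. Total counts per library ran from 16116849 to 22994197. The sample descriptions of 4 libraries, 2 of each genotype, end in a suffix _2 whose meaning the labels do not explain. Neither the files nor the reference table pairs identifiers with symbols, so markers of secretory cells or of leucocytes in milk could not be read.

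COX1 was the most abundant gene of the whole table, COX3 had rank 7 and COX2 rank 15 by summed counts. COX1 alone took between 1.77% of all counts, in A2A2 17, and 20.2%, in A1A1 9. The COX3 share ran from 0.757% to 7.16% and the COX2 share from 0.356% to 3.94%, in the same 2 cows. Counting error is small at this depth: the exact binomial 95% interval of a share reached at most 0.0183 percentage points to either side, and it covers counting error only. Together the 3 genes held 15.7 ± 7.78% of the counts of an A1A1 library and 7.00 ± 2.93% of those of an A2A2 library (SD, n = 7 each). No test is given for this sum.

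Mean COX1, COX3 and COX2 levels were all lower in A2A2 than in A1A1 globules, by 2.66-, 2.34- and 2.44-fold between geometric means of the scaled counts given below as TMM CPM, but none passed a test adjusted over all genes in edgeR. Levels are given first as deposited FPKM, which are counts scaled to gene length and to a size of each library. Genes of different length can thus be set side by side. That size was not the plain total of counts, as the scales compared below show. Samples are named by genotype and sample number. In bulk RNA of this kind, fewer globules or cells carrying mitochondria and less mitochondrial RNA in each cannot be told apart. All these levels are relative, so more of other abundant RNA in a library can lower them too. The 10 most abundant genes outside the mitochondrial genes held 30.3% of an A1A1 library's counts on average (SD 14.0, range 5.67% to 49.5%). For A2A2 the average was 39.7% (SD 5.99, range 32.4% to 47.9%). This difference was not tested.

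COX1 had a lowest FPKM of 42975 (A1A1 7), a median of 52723 and a highest of 141754 (A1A1 9) in A1A1. In A2A2 its lowest FPKM was 11101 (A2A2 17), its median 22293 and its highest 39692 (A2A2 11). Every A1A1 library thus lay above every A2A2 library. The mean FPKM of COX1 was 66593 ± 34556 over the A1A1 and 25253 ± 10479 over the A2A2 cows (SD, n = 7 each).

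COX3 had a lowest FPKM of 33394 (A1A1 7), a median of 44504 and a highest of 99675 (A1A1 9) in A1A1. In A2A2 it ran from 9406 (A2A2 17) through a median of 22281 to 33268 (A2A2 11). The groups did not overlap here either, but the gap between A2A2 11 and A1A1 7 was narrow. Its mean FPKM was 53384 ± 22507 and 23226 ± 8508 (SD, n = 7 each). Of all 12320 genes tested, 0.0406% were lower in A2A2 without overlap in FPKM, and COX1 and COX3 were among them.

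COX2 had a lowest FPKM of 13659 (A1A1 7), a median of 25875 and a highest of 62536 (A1A1 9) in A1A1. In A2A2 it ran from 5052 (A2A2 17) through a median of 12119 to 21040 (A2A2 11). For this gene the groups overlapped: 5 of 7 A2A2 libraries lay below the lowest A1A1 library, while A2A2 11 and A2A2 13 lay within the A1A1 range. Its mean FPKM was 28747 ± 16174 and 11658 ± 5257 (SD, n = 7 each). The same cows marked the ends for all 3 genes, with A1A1 9 highest and A2A2 17 lowest of the 14.

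**Figure D1:**
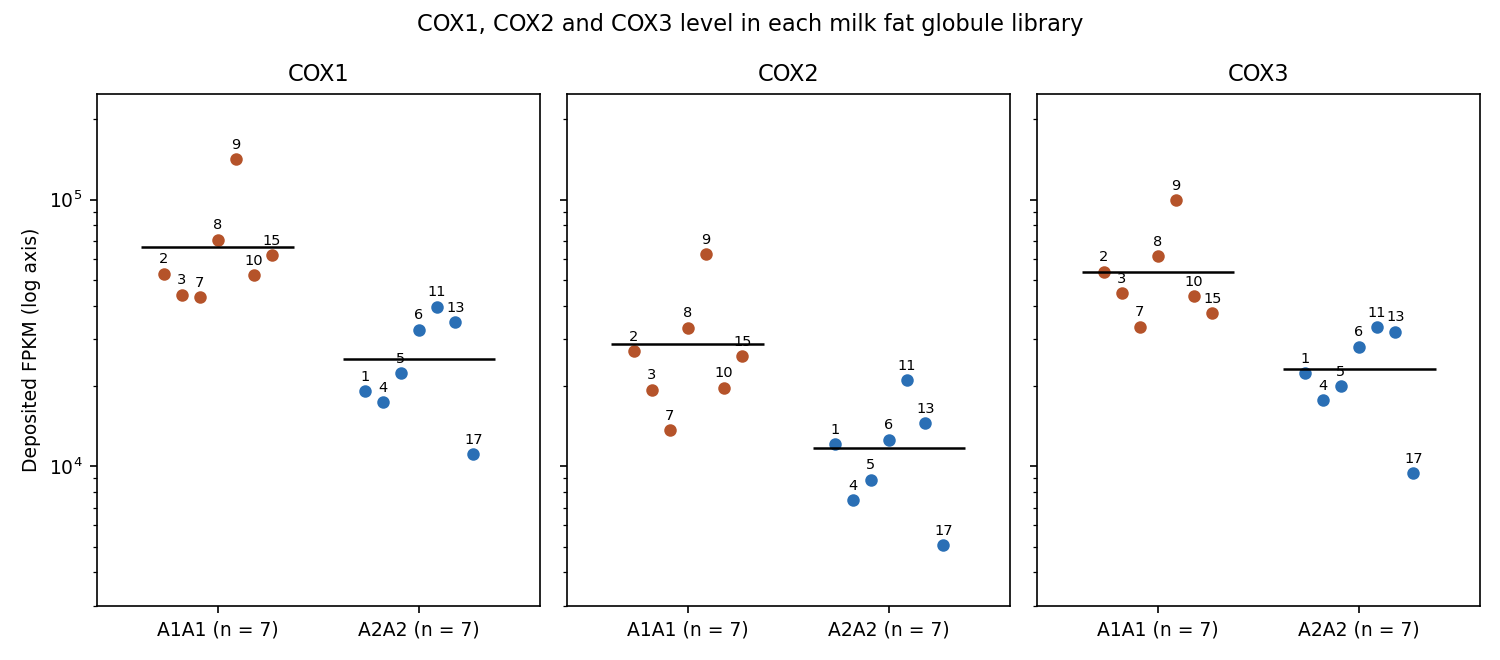
Deposited FPKM of COX1, COX2 and COX3 (log axis) in each of 14 libraries, with 7 A1A1 and 7 A2A2 cows labelled by sample number and a line at each group's mean. A1A1 9 is the highest and A2A2 17 the lowest library in every panel, and the groups overlap for COX2 only.

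The absence of overlap depended on the scale. CPM (counts in every 1000000) scaled with TMM factors, which correct a library's total for genes that take up an unusual share of it, gave COX1 from 66645 to 222371 in A1A1 and from 17013 to 61928 in A2A2, again without overlap. In this unit 0.0325% of the genes tested were lower in A2A2 without overlap. COX3 overlapped by a single pair on this scale, with 26178 in A1A1 7 and 26238 in A2A2 11. As plain shares of all counts the groups overlapped for all 3 genes. The lowest A1A1 library was then A1A1 3, with 4.4% for COX1, and 4 of 7 A2A2 libraries lay below it. A1A1 3 had the lowest TMM factor, 0.636, which raises all its values on the TMM scale. The deposited FPKM followed the TMM scale and not the plain shares. COX1 had an FPKM of 43919 in A1A1 3 and 42975 in A1A1 7, with TMM CPM of 69297 and 66645. Its plain shares in these libraries were 4.4% and 6.54%. FPKM and TMM CPM are therefore not independent scales. The mean TMM factor was 0.946 ± 0.152 over 7 A1A1 and 1.07 ± 0.0752 over 7 A2A2 libraries (± SD). By a two-sided exact permutation test these means had p = 0.0490, and p = 0.147 after adjustment over 3 library measures, and the part of the factors in the result was not tested.

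In edgeR's quasi-likelihood test on counts, the log2 fold change of A2A2 over A1A1 was -1.41 for COX1 with a standard error of 0.36, -1.32 for COX2 with 0.37 and -1.21 for COX3 with 0.33. These standard errors are those implied by the test statistic. The unadjusted p was 0.00131 for COX1, 0.00275 for COX2 and 0.00186 for COX3 in edgeR. All 3 genes were thus lower in A2A2 at an unadjusted p under 0.05, as were 2.15% of all genes tested. Adjusted by Benjamini-Hochberg over all 12320 genes, p was 0.856 for each, and edgeR called 0 of the 3 genes and 0.0% of all genes, of which 411 had an unadjusted p under 0.05. Over all genes tested the median was -0.0042. Only 2.03% of the genes tested had a log2 fold change below that of COX1, 2.82% below that of COX2 and 3.75% below that of COX3.

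An exact permutation test over all 3432 assignments of 7 and 7 libraries was run for every gene on log2(TMM CPM + 0.5). COX1 differed by -1.41 between the genotype means, with a 95% interval from -2.15 to -0.69, and had an exact permutation p of 0.000583, the smallest that these assignments can give. COX3 differed by -1.23 (interval from -1.93 to -0.57, exact permutation p = 0.00117). COX2 differed by -1.29 (interval from -2.11 to -0.49, exact permutation p = 0.00466). Taken alone, each of the 3 was lower in A2A2 at an exact permutation p under 0.05, as were 1.55% of all genes tested. Adjusted over all genes tested, the exact permutation p was 0.826 for each of the 3, so none passed. The smallest p that these assignments can give limits this adjustment. A gene at that smallest p, as COX1 was, can pass only if many other genes reach it too. The adjusted values therefore do not show that the 3 genes were unchanged.

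The call depended on the tool. DESeq2 on the same 12320 genes gave adjusted p values of 0.0234 for COX1, 0.0490 for COX3 and 0.0967 for COX2, so COX1 and COX3 passed and COX2 did not. It called 12 genes in all, or 0.0974% of those tested, and 9 of these were lower in A2A2 (0.0731%). Without the filter on low counts, an alternative chosen after seeing the data, DESeq2 gave adjusted p values of 0.0532 for COX1, 0.113 for COX3 and 0.186 for COX2, and none passed. It then called 5 of 21104 genes (0.0237%), of which 4 were lower in A2A2 (0.019%). In neither DESeq2 run was a count of these genes replaced as an outlier. Over 27 alternatives the adjusted p ran from 0.0234 to 1.00 for COX1, from 0.0967 to 1.00 for COX2 and from 0.0490 to 1.00 for COX3.

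A1A1 9 stood apart in more than these genes. In this library the 10 most abundant genes outside the mitochondrial set took 5.67% of the counts, where the other 6 A1A1 libraries had between 22.4% and 49.5%, and matched mitochondrial genes took 51.9%. Without A1A1 9 the log2 fold change in edgeR was -1.11 for COX1, -0.997 for COX2 and -0.99 for COX3, against -1.41, -1.32 and -1.21 with it. Among the 10 libraries without the suffix, the mean TMM CPM of COX1 was 110201 in 5 A1A1 and 37079 in 5 A2A2 cows, and the difference in mean log2 CPM was -1.56 (exact permutation p = 0.00794). The same difference was -1.41 for COX2, with an exact permutation p of 0.0238, and -1.45 for COX3, with an exact permutation p of 0.0159. For the 4 suffixed libraries the COX1 means were 87854 in 2 A1A1 and 43859 in 2 A2A2 cows. COX2 had means of 15556 and 7968 there, and COX3 had 31472 and 20188, with 2 cows each and no test.

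The 3 genes can be set among the other mitochondrial genes of the block. All 13 mitochondrial protein genes and both rRNA genes matched 1 identifier each by length, and 4 of 22 tRNA genes did. The other 18 tRNA genes were not used, since their lengths are shared or no identifier of that length had a count. The rRNA genes form the mitochondrial ribosome, ND genes encode subunits of complex I, CYTB encodes the core of complex III, and ATP6 and ATP8 encode subunits of the ATP synthase.

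Per length, COX1 and COX3 were the 2 highest of these 15 genes in every library, and COX2 had place 5 by its mean log2 level. The libraries were made from mRNA, so the places of the rRNA genes do not give the level of rRNA in the globules. COX1 came first in 10 of 14 libraries and COX3 in the other 4, which were A1A1 2, A1A1 3, A2A2 1 and A2A2 4. The log2 level of COX1 exceeded that of COX3 by 0.20 ± 0.24 (SD, n = 14), and this mean difference was not tested. COX3 exceeded ATP6, the next gene, by 0.69 ± 0.17 on the log2 scale and in 14 of 14 libraries. The genes around COX2 were closer. ND3 exceeded it by 0.18 ± 0.31 and in 11 of 14 libraries, and COX2 exceeded ND1 by 0.42 ± 0.20 and in 13 of 14 libraries. None of these orders was tested. At the low end stood ATP8, with 266 ± 177 FPKM in A1A1, and ND6, with 134 ± 49.9 (SD, n = 7 each). ND6 is the only one of the 13 protein genes encoded on the other strand.

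**Figure D2:**
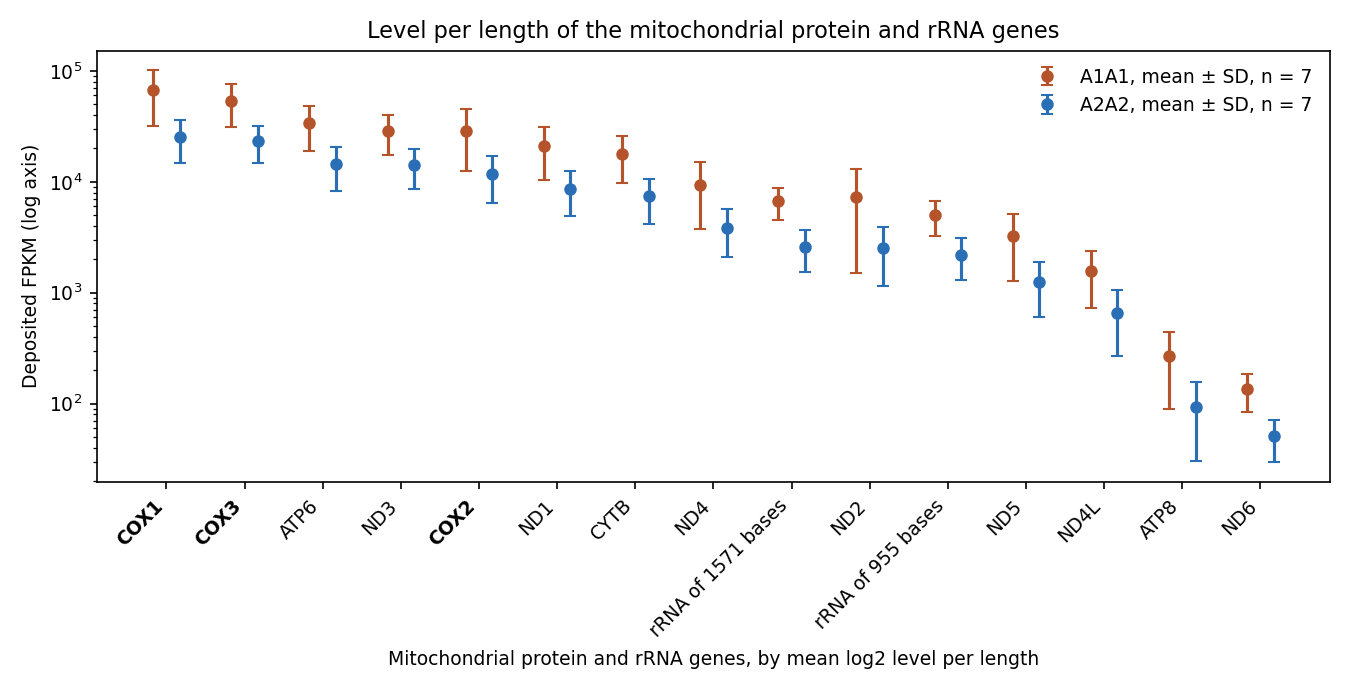
Deposited FPKM (log axis) of 13 mitochondrial protein genes and 2 rRNA genes, as mean ± SD of 7 A1A1 and 7 A2A2 libraries, ordered by mean log2 level per length. COX1 and COX3 stand first, COX2 has place 5, and the A1A1 mean is above the A2A2 mean for every gene shown.

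Neighbours on the mitochondrial genome did not share 1 level. In the gene order of the reference table COX3 follows ATP6 directly, with no tRNA gene between them. COX3 exceeded ATP6 per length 1.6 ± 0.20-fold in the A1A1 and 1.64 ± 0.17-fold in the A2A2 group (SD, n = 7 each), with a range of 1.23 to 1.86 over all libraries. ND3, which follows COX3 after a tRNA gene, was lower than COX3 by a factor of 1.89 ± 0.300 and 1.66 ± 0.168. COX1 lies after ND2 and a run of tRNA genes, and it exceeded ND2 per length 12 ± 6.4-fold in A1A1 and 11.2 ± 3.20-fold in A2A2. COX2 lies after COX1 and before ATP8, and its ratio to ATP8 ran from 41.5 to 539. ATP8 shares bases with ATP6 and is short, and how reads in shared bases were counted is not given in the sources used here. The ratio of COX2 to ATP6 was much tighter, at 0.822 ± 0.109 and 0.812 ± 0.120.

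The genotype differences of the 3 genes lay inside the range of the other mitochondrial protein genes. The log2 fold changes of the 10 others in edgeR ran from -1.56 for ND2 to -1.04 for ND3, with a median of -1.29. All 10 were lower in A2A2 in edgeR, as were 50.5% of all genes tested, and all 10 had an unadjusted edgeR p under 0.05, as did 2.15% of all genes in that direction. After adjustment over all genes edgeR called 0 of the 10. Counted from the most negative among the 13 protein genes, COX1 had position 4, COX2 position 6 and COX3 position 12. Among all 17 matched mitochondrial genes that could be tested, 17 were lower, edgeR called 0 after adjustment, and the median was -1.32 against -0.0042 for all genes tested. DESeq2 called 8 of these 17 as lower, against 0.0731% of all genes, and without the filter on low counts it called 2 of 19, against 0.019%. The list was formed with these results known, and its counts are a description.

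**Figure D3:**
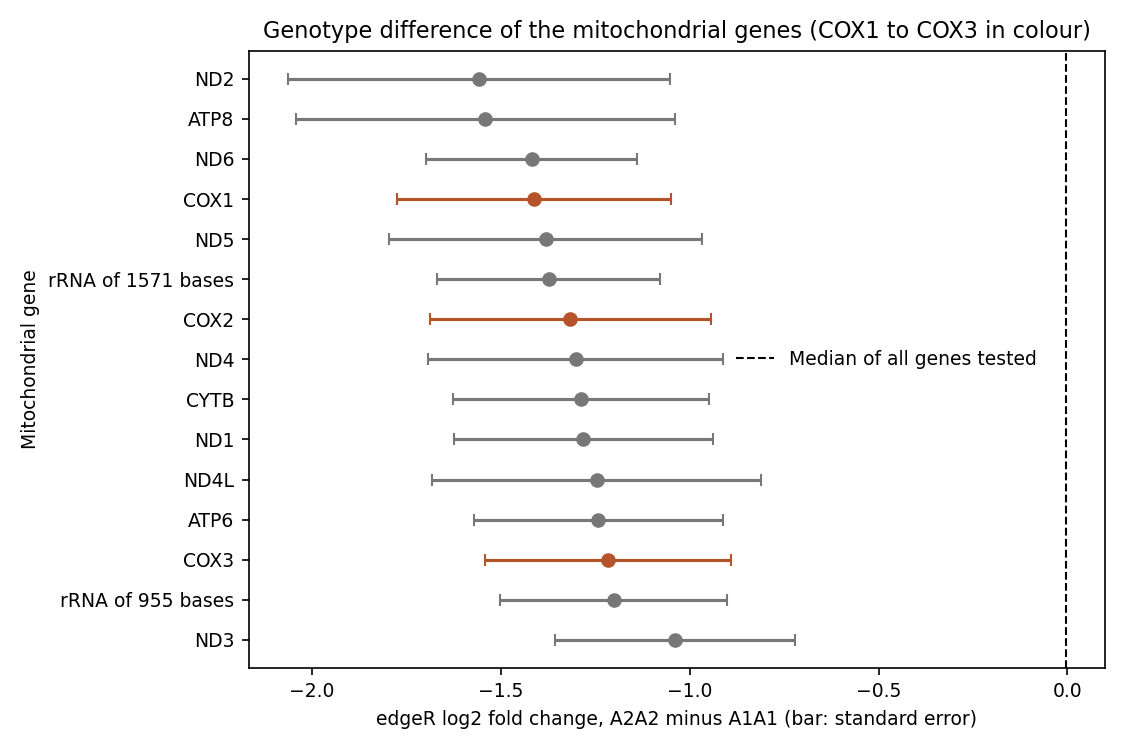
edgeR log2 fold change of A2A2 over A1A1 for 13 mitochondrial protein genes and 2 rRNA genes, with standard errors, COX1 to COX3 in colour and a dashed line at the median of all genes tested. The 3 coloured points lie between those of ND2 at -1.56 and ND3 at -1.04.

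The ratios between the 3 genes varied by less than 2-fold over the 14 libraries while their levels varied over 10-fold. As a part of all counts of mitochondrial protein genes, the sum of the 3 lay between 59.6% and 64.9% in every library, with 62.2 ± 1.8% over the A1A1 and 61.1 ± 1.28% over the A2A2 libraries (SD, n = 7 each). COX1 took 38.8 ± 2.63% and 36.5 ± 2.15% of these counts, COX3 16.2 ± 2.22% and 17.2 ± 1.36%, and COX2 7.25 ± 0.751% and 7.43 ± 0.958%. The fold between the highest and the lowest library was 12.8 for COX1, 12.4 for COX2 and 10.6 for COX3 in FPKM. Ratios per length within a library varied less, with 1.99-fold for COX2 to COX1, 1.93-fold for COX3 to COX1 and 1.69-fold for COX3 to COX2 between the highest and the lowest library.

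Ratios within a library do not depend on how libraries are scaled, and 6 were compared between the genotypes. COX2 per length was 0.425 ± 0.0628 of COX1 in the A1A1 and 0.464 ± 0.0883 in the A2A2 group (SD, n = 7 each). The log2 difference was 0.12, with a 95% interval from -0.16 to 0.41 (exact permutation p = 0.371, adjusted p = 0.741 over the 6 ratios). COX3 was 0.832 ± 0.153 of COX1 in A1A1 and 0.935 ± 0.118 in A2A2, a log2 difference of 0.18 (interval from -0.08 to 0.45, exact permutation p = 0.166, adjusted p = 0.498). COX3 exceeded COX2 1.98 ± 0.369-fold and 2.05 ± 0.287-fold, a log2 difference of 0.060 (interval from -0.23 to 0.36, exact permutation p = 0.660, adjusted p = 0.792). No genotype difference in the balance of the 3 genes was detected, and the intervals do not exclude log2 shifts as large as their bounds.

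Against the summed 10 other mitochondrial protein genes, COX1 per length was 5.60 ± 0.560-fold higher in A1A1 and 5.10 ± 0.422-fold higher in A2A2. The log2 difference was -0.13, with a 95% interval from -0.29 to 0.027 (exact permutation p = 0.0938, adjusted p = 0.498 over the 6 ratios). COX2 was 2.35 ± 0.222-fold and 2.34 ± 0.262-fold higher than the others, a log2 difference of -0.011 (interval from -0.19 to 0.16, exact permutation p = 0.882, adjusted p = 0.882). COX3 was 4.62 ± 0.756-fold and 4.74 ± 0.459-fold higher, a log2 difference of 0.049 (interval from -0.17 to 0.27, exact permutation p = 0.649, adjusted p = 0.792). The log2 fold changes of the 3 genes themselves, from -1.41 to -1.21, lie outside all 6 of these intervals.

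**Figure D4:**
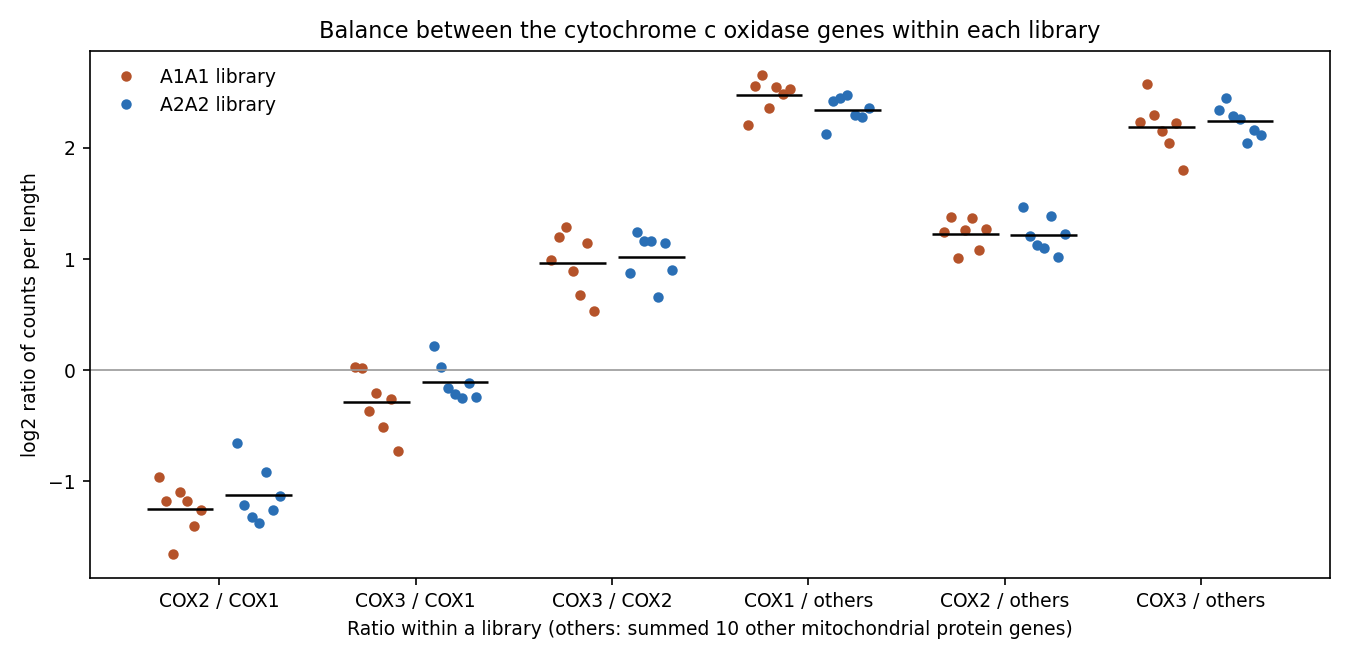
log2 ratio of counts per length within each library for 3 pairs of cytochrome c oxidase genes and for each gene over the summed 10 other mitochondrial protein genes, with 7 A1A1 and 7 A2A2 libraries and a line at each group's mean. The groups overlap in all 6 ratios, and the means differ by at most 0.18.

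Single cows marked the ends of these ratios. A2A2 1 had the highest COX2 to COX1 ratio, 0.634, and the highest COX3 to COX1 ratio, 1.16, and COX1 took 32.1% of its mitochondrial protein counts, the lowest value of all libraries. A1A1 7 had the lowest COX2 to COX1 ratio, 0.318, and the highest COX1 share, 41.8%. A1A1 15 had the lowest COX3 to COX1 ratio, 0.605, and the lowest COX3 to COX2 ratio, 1.45. The suffix libraries A1A1 10 and A1A1 15 had a mean COX3 to COX1 ratio of 0.720, against 0.876 ± 0.141 in the 5 other A1A1 libraries, and for A2A2 these means were 0.908 and 0.946 ± 0.142.

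The 3 genes followed each other from cow to cow. Over 14 libraries the log2 TMM CPM of COX1 and COX3 had a Pearson r of 0.971 and a Spearman rho of 0.960, COX1 and COX2 had 0.968 and 0.952, and COX2 and COX3 had 0.969 and 0.960. The permutation p of each r was 1e-05, also after adjustment over the 3 pairs, which is the smallest that 100000 resamples can give, and that of each rho was at most 2e-05 before and after adjustment. Both values of a pair come from 1 library and share its scale. Without A1A1 9 and A2A2 17, the 2 libraries farthest from the median, r was 0.936, 0.923 and 0.937 in the same order. Within A1A1, r was 0.888, 0.955 and 0.934, and within A2A2 it was 0.965, 0.928 and 0.951 (n = 7 each, no test). Among the 10 libraries without the suffix, r was 0.981, 0.969 and 0.979.

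**Figure D5:**
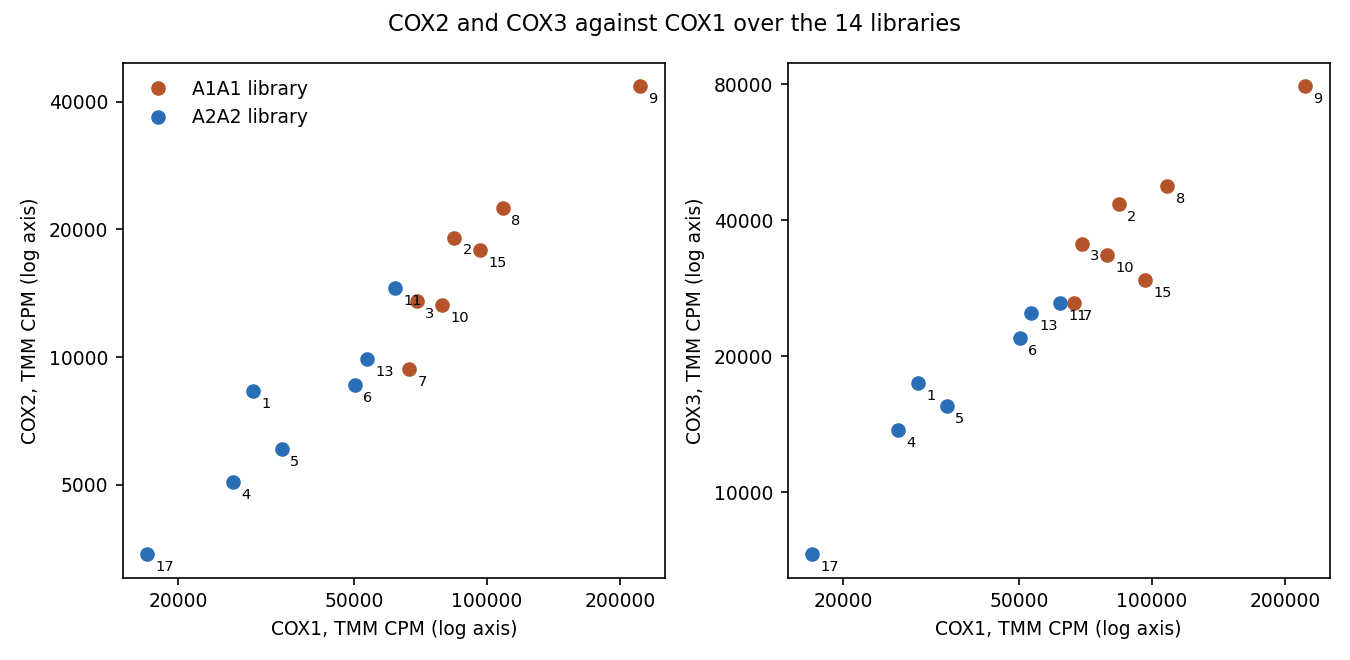
TMM CPM of COX2 (left) and COX3 (right) against COX1 in 14 libraries, both axes log, labelled by sample number and coloured by genotype. A2A2 17 is lowest and A1A1 9 highest for each gene, with Pearson r of 0.968 for COX2 and 0.971 for COX3 on the log2 scale.

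The genes whose pattern over the 14 libraries was most like these 3 were other mitochondrial genes. Among 5878 genes tested with a mean TMM CPM of at least 10, the 5 highest Pearson r with COX1 belonged to ND1 (0.989), ATP6 (0.984), CYTB (0.981), ND4 (0.970) and ND5 (0.946). For COX2 they belonged to ND4 (0.988), ATP6 (0.979), ND1 (0.977), CYTB (0.973) and ND3 (0.951). For COX3 they belonged to ATP6 (0.982), CYTB (0.971), ND3 (0.971), ND1 (0.968) and ND4 (0.956). All these values share the library and its scale, and no p is given. Outside the matched mitochondrial genes, the highest r was 0.866 for COX1 (ENSBTAG00000007993, 2019 bases), 0.900 for COX2 (ENSBTAG00000012417, 1305 bases) and 0.864 for COX3 (ENSBTAG00000020035, 2273 bases), genes picked after their values were seen. The files give no names for these identifiers.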

How the data were processed

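Per the labels' protocols, total RNA was extracted from frozen milk and made into paired-end mRNA libraries, 1 for each of 14 cows. For 36075 Ensembl identifiers the authors deposited a table of raw counts and one of FPKM. FastQC 0.11.9, cutadapt 4.0, edgeR 4.0.16 and STAR are named, without a role, in the submitters' processing notes. Not given in the sources used here are the genome build, the counting tool, its strand setting and its treatment of reads that match several places. The nuclear genome holds copies of mitochondrial sequence, so a share of reads could be assigned either way.

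Gene lengths were obtained here from the deposited counts and FPKM, whose quotient gives the length up to 1 factor per library, scaled to the 1545 bases of COX1. Each implied length lay within 0.006 of a whole number. Names come from lengths in the RefSeq table of ARS-UCD2.0, whose Ensembl column matched 0 identifiers, so the nuclear cytochrome c oxidase genes and the cell type markers listed for this work were not run, and no coordinates are given.

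The counts of 12320 genes that passed filterByExpr entered a robust quasi-likelihood F test with TMM factors (edgeR 4.0.16 under R 4.3.3), A2A2 minus A1A1, two-sided, threshold 0.05, adjusted by Benjamini-Hochberg. Exact permutation tests used numpy 2.4.6, and their 95% intervals come from inverting the test over shifts. Per-gene pseudocounts were 0.5 on CPM. Alternatives were RLE factors, library totals, a scale without the mitochondrial genes, 2 other filters, DESeq2 1.42.0, limma 3.58.1 (voom with quality weights, and log2(FPKM + 1) or log2(FPKM + 0.1)), the suffix as a covariate or left out, and each library left out. The edgeR and permutation scripts were tested on simulated data. There edgeR called 24% of genes given a 2-fold change and 66% of those given a 4-fold change, after adjustment. It also called 7 unchanged genes among 11990 tested. A gene that edgeR does not call is therefore not shown to be unchanged. Libraries of a genotype differed by far more than sampling noise (chi-square per degree of freedom at least 67.3). Each cow was treated as an independent sample.

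The 3 genes, the lists and the tests were chosen with earlier results of these data known. Named genes are the 3 genes, the matched mitochondrial genes and, for each of the 3, the 5 genes of highest Pearson r.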

Additional observations from a re-analysis of the deposited data

Results flagged for a closer look

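In 50 sets of 7 values (several measures of COX1, COX2, COX3 and related sums within a genotype), 7 held a library far from the other 6 by Dixon's test. No FPKM set is among these 7, which does not show that FPKM held no such library. In FPKM too A1A1 9 stood apart, with 141754 for COX1 against 70827 in the next highest A1A1 library. Chance gives about 1 in 20 sets for normal values, the sets overlap, and skewed values such as CPM or shares are found more often than that.

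A1A1 9 accounts for 6 of them. Its TMM CPM was 222371 for COX1, 43431 for COX2 and 79041 for COX3, and the next highest A1A1 library had 108445, 22438 and 47578. On a scale of counts in every 1000000 outside the mitochondrial genes it had 418894 for COX1, 81814 for COX2 and 148895 for COX3, against at most 174317, 36068 and 76478 in the other A1A1 libraries. In A2A2 1, COX1 took 32.1% of the counts of mitochondrial protein genes, and the next lowest A2A2 library had 36.1%.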

How the results depend on the processing

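COX1, COX2 and COX3 had lower levels in A2A2 under all alternatives run. The log2 fold change ran from -1.57 to -1.11 for COX1, from -1.53 to -0.997 for COX2 and from -1.42 to -0.99 for COX3 over 27 alternatives. Leaving out 1 library gave -1.56 to -1.11, -1.53 to -0.997 and -1.33 to -0.99, each highest without A1A1 9 and lowest without A2A2 11. With DESeq2 and the filter on low counts it was -1.45 for COX1 and -1.25 for COX3, and only there did these 2 genes pass. The cause was not tested. The exact permutation differences ran from -1.56 to -1.21, from -1.45 to -1.07 and from -1.45 to -1.03 over 19 alternatives, with unadjusted exact p of at most 0.0117, 0.0238 and 0.0159, and none passed over all genes. The smallest possible exact p limits that adjustment, as described above. With library totals in place of TMM factors all genes tested had a median of 0.18, and COX1, COX2 and COX3 had -1.23, -1.13 and -1.02.

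The count of genes called was 0 in edgeR (411 at an unadjusted p under 0.05), 12 with DESeq2, 5 with DESeq2 without a filter on low counts and 1 with limma on log2(FPKM + 1). It was 0 in the other 24 alternatives, limma voom among them, and 0 to 0 when leaving out 1 library.

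For the 6 ratios no adjusted p passed under any alternative, while small differences changed sign. COX1 to the other protein genes was -0.067 with each other gene at the same weight (exact permutation p = 0.543) and -0.18 without A1A1 2 (exact permutation p = 0.0146, adjusted p = 0.0874), against -0.13 (exact permutation p = 0.0938). COX2 to COX1 was -0.037 between medians, COX3 to COX2 was -0.041 without the suffix libraries, and COX3 to the other protein genes was -0.016 there. COX2 to the other protein genes was 0.025 without the suffix libraries and 0.055 with each other gene at the same weight. Leaving out 1 library gave 0.044 to 0.17 for COX2 to COX1, 0.11 to 0.23 for COX3 to COX1, -0.011 to 0.12 for COX3 to COX2, -0.18 to -0.096 for COX1 to the others, -0.052 to 0.022 for COX2 to the others and -0.015 to 0.11 for COX3 to the others. For the summed share it gave -10.0 to -6.07 percentage points, the latter without A1A1 9.

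No paired analysis was possible because the genotypes share no sample numbers. Depth sets only the counting error of these values, which is small beside the spread between cows.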
